A study of Mus musculus with 8 samples.

Results

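A set of 10 genes of hepcidin control and iron sensing was followed on 8 two-colour arrays that set liver tumors of mice without miR-122 against control liver. The 10 genes are Hamp, Hamp2, Bmp6, Id1, Hjv, Hfe, Tfr2, Tfrc, Tf and Slc40a1. They were found through the RefSeq accession of each probe, with transferrin listed there as Trf and hemojuvelin (Hjv) formerly called Hfe2. They were read by 13 of the 55681 probes, and all 10 genes were among the 14311 genes tested, of 20145 named on the array. The tumors were hepatocellular carcinomas (HCC) of male mice with the genotype miR-122 KO, labelled with Cy5. The control was liver of age-matched male mice with the genotype miR-122 floxed, labelled with Cy3. The labels give a mixed genetic background, C57BL/6J and 129S/Svj, to tumors and controls alike. They call the controls WT in a second place, and state neither the age nor the cells in which the gene was deleted. The 8 tumors are labelled as biological replicates, and the labels do not say whether tumors shared a mouse or whether control RNA was pooled. No tumor-free knockout liver was on the arrays, so the loss of the microRNA and the tumor cannot be told apart. No array had the dyes swapped, so an effect of the dyes cannot be told apart from that of the tumor either.

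Hepcidin, the product of Hamp, is a peptide hormone that hepatocytes secrete when iron is plentiful. It binds ferroportin (Slc40a1), the cellular iron exporter, and causes its degradation, which limits the release of iron into plasma. In liver, sinusoidal endothelial cells make the ligands BMP6 and BMP2 in response to iron. Hepatocytes receive them through BMP receptors with the co-receptor hemojuvelin, and SMAD proteins then switch on Hamp and targets such as Id1. HFE and transferrin receptor 2 (Tfr2) report how much iron-loaded transferrin is in plasma, and inflammation raises Hamp through IL-6 and STAT3. Hfe and Hjv have been published as targets of miR-122, the main microRNA of hepatocytes.

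Values are log2 ratios of tumor over control within an array, or log2 signals of 1 channel after normalization. A gene was called higher or lower at an adjusted p under 0.05 in limma and a change of at least 2-fold, and rises and falls are given on the log2 scale. On array 8 the control channel held transcripts of skeletal muscle, a tissue that also expresses Hjv. All 18 muscle markers on the array were higher there than the median of the other controls, by a median of 5.55 on the log2 scale. The summed signal of the 7 muscle markers tested was 4591 in tumor 8, against 70575 in its control. On the other arrays the sum was 828 to 1101 in the tumors and 1037 to 1653 in the controls. The controls of arrays 1 and 2 were more alike (r = 0.995 across genes) than any of the other 27 pairs of controls (0.977 to 0.992). The microRNA itself was not analysed here.

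Hamp and Hamp2, both hepcidin genes, lie close together on chromosome 7, and the windows around their starts are shown side by side. The difference of their mean ratios, given below, had an adjusted p under 0.05 (exact permutation test) in 11 of 21 processing alternatives. No link between the sequences and the ratios was tested. Each window runs from 250 bases before to 50 bases after the gene's start (RefSeq, GRCm38.p6, minus strand), at chr7:30943980-30944279 for Hamp and chr7:30924132-30924431 for Hamp2. Capitals mark GGCGCC, the core of the BMP response element, and TTCNNNGAA, the form of a STAT element, both searched on both strands.
Hamp: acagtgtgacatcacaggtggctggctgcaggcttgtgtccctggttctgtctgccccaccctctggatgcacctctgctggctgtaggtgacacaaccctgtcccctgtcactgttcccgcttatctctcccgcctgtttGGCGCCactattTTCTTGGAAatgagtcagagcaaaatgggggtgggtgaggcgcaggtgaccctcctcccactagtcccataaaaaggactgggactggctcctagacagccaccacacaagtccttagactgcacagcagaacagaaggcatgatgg
Hamp2: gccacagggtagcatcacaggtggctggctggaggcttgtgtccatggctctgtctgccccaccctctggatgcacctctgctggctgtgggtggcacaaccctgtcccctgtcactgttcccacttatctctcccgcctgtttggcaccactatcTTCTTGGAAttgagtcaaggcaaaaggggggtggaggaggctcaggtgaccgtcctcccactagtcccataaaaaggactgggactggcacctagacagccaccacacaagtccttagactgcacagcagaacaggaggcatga
Over 297 aligned bases the windows were 92.9% identical, with 21 substitutions. The Hamp window held GGCGCC from position 142 and a STAT form from position 154. The Hamp2 window held the STAT form from position 157, with no substitution, and no GGCGCC. The substitution in that core is G145A, counted from 1 at the 5′ end of the Hamp window with the base of Hamp first. Of 32851 promoter windows of the same length, 11.9% held GGCGCC and 8.30% held the STAT form. A match of letters is a description, not a binding site, and a window without one says nothing of the factor. Of the 10 genes, 6 had a window (Hamp, Hamp2, Hfe, Bmp6, Tfr2 and Tfrc), and beside Hamp only 1 of the windows of Tfrc held GGCGCC.

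Hamp (chr7:30942368-30944029, GRCm38.p6 as for all genes below) was called lower and lay below its control in every tumor. Its log2 signal was 12.26 in the lowest tumor, 13.23 at the median and 14.67 in the highest, against 15.50, 15.86 and 16.34 in the controls. The channels did not overlap: the highest tumor lay below the lowest control, as was the case in this direction for 8.47% of all genes tested. The log2 ratio was -2.48 ± 1.02 (SD, n = 8), which is 5.60-fold lower, with a 95% interval of -3.18 to -1.79 and an adjusted p of 0.000165 (limma). Of all genes tested, 5.94% were called lower, and 0.755% had a ratio below that of Hamp. The controls varied little (SD 0.28) and the tumors more (SD 0.91), so the tumors spread over a wider range. The ratios nearest 0 were in tumors 4 (-0.99) and 7 (-1.28), and the lowest in tumors 3 (-3.97) and 1 (-3.49). In bulk tissue, fewer cells of a type and less RNA per cell cannot be told apart. Of 12 hepatocyte markers, all well above background on every array, 4 fell and 0 rose, against 5.94% and 9.54% of all genes tested. Cyp2e1 (-3.84 ± 1.55) and Serpina1a (-1.79 ± 0.47) were among those that fell and were the brightest in the controls (mean log2 signals 18.04 and 18.07). Alb (-0.29 ± 1.04, adjusted p = 0.46) and Fgb (-0.29 ± 0.76, adjusted p = 0.315) were not called. The summed signal of the 12 markers was 675591 to 947621 in the tumors, against 1436650 to 1749520 in the controls. Their part in the fall of Hamp was not tested. The mean ratio was -2.63 in the first row of the slide, -2.34 in the second and -2.42 without array 8.

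Hamp2 (chr7:30922372-30924181), the second hepcidin gene of the mouse, was not called and varied widely in both channels. Log2 signals were 6.65, 8.49 and 10.86 in the lowest, median and highest tumor, against 7.65, 9.54 and 11.21 in the controls. Tumor over control, it averaged -0.77 ± 1.88 on the log2 scale (SD, n = 8, adjusted p = 0.278), and 99.4% of genes tested had an SD no larger. The ratio was above 0 on arrays 2, 4 and 6 (1.27, 0.84 and 1.66) and below 0 on the other 5, down to -3.02 on array 8. Arrays 7 and 8 held the 2 brightest controls (10.64 and 11.21), and the mean ratio was -0.12 without them. Hamp was lower than Hamp2 in log2 ratio on 6 of 8 arrays, with a mean difference of -1.72 ± 1.75. This difference had an adjusted p of 0.0391 in an exact permutation test over the 8 arrays (two-sided, adjusted over the 2 pairs compared). Without any 1 of arrays 1 to 6 it did not pass the threshold (adjusted p of up to 0.0781), at differences of -1.80 to -1.35. Whether each probe also reads the transcript of the other gene was not tested.

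**Figure D1:**
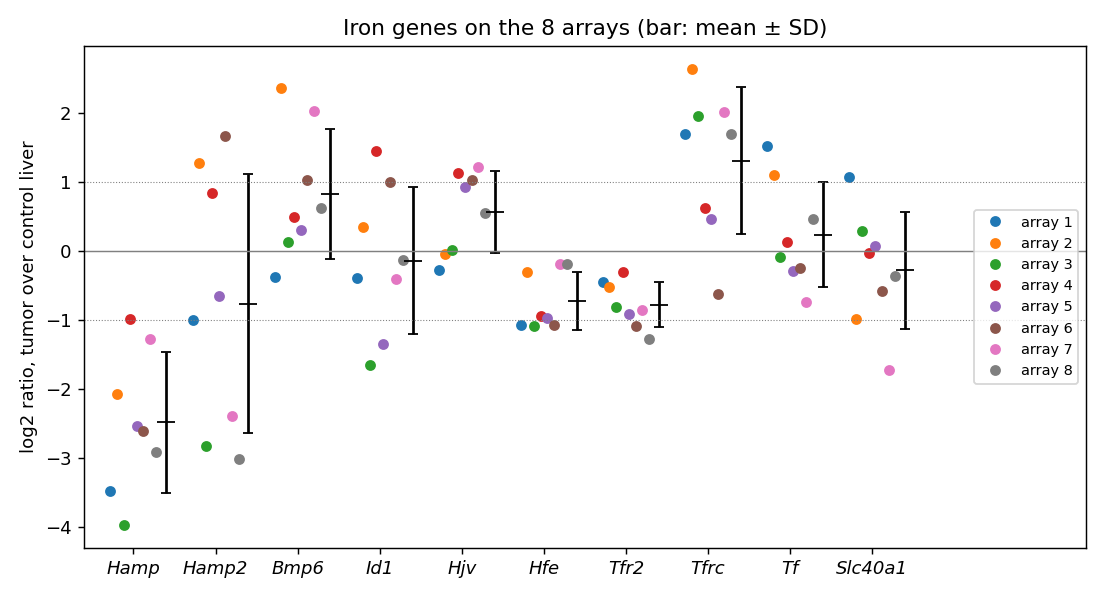
Log2 ratio of tumor over control (y axis) for each iron gene (x axis), with 1 coloured point per array, the mean and SD over 8 arrays as a black bar, and dotted lines at 2-fold. All 8 points of Hamp lie below 0, between -3.97 and -0.99, while those of Hamp2 run from -3.02 to 1.66.

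Among the 10 genes, Hamp was the 1 called lower and Tfrc the 1 called higher, where 9.54% of all genes tested were called higher. With no size required, 3 had an adjusted p under 0.05 and a ratio below 0 (Hamp, Hfe and Tfr2), and 3 had one above 0 (Tfrc, Bmp6 and Hjv). Over all genes tested, these shares were 25.1% lower and 28.7% higher, and 53.8% either way. Calls of either direction made up 15.5% of all genes. The tumor channel lay wholly above the control channel for 0 of the 10 genes, against 8.32% of all genes.

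Bmp6 (chr13:38345716-38500314), the ligand that links liver iron to hepcidin, was not called. It had log2 signals of 7.73, 8.63 and 10.26 in the lowest, median and highest tumor, against 7.63, 7.88 and 8.28 in the controls. Tumors 2 and 7 were highest (10.26 and 9.65), and tumors 1, 3 and 5 lay within the range of the controls. Tumor over control, the mean was 0.82 ± 0.94 on the log2 scale (SD, n = 8, 7 arrays above 0), under the 2-fold size, with an adjusted p of 0.0356 (limma). That p was above 0.05 without any 1 of arrays 2, 4, 6 and 7 (0.0529 to 0.0811, ratios of 0.60 to 0.87). The ratio was 0.65 in the first row of the slide and 0.99 in the second. Of 12 markers of sinusoidal endothelial cells, 6 fell and 0 rose, against 5.94% and 9.54% of all genes tested. The falls were led by Clec4g, Oit3 and Dnase1l3. With no size required, 8 of the 12 were lower and 0 higher by adjusted p, against 25.1% and 28.7% of all genes tested. The summed signal of the 12 was 7594 to 13682 in the tumors, against 23906 to 30375 in the controls. Wnt2 was not well above background in any tumor. Their part in the values of Bmp6 was not tested.

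Among the other BMP genes, the ligands Bmp2 and Gdf2 fell. In a list of 26 BMP and SMAD genes, 25 were tested, of which 6 fell and 3 rose, against 5.94% and 9.54% of all genes tested. Their median log2 ratio was -0.25, against 0.03 over all genes. Bmp2, the other endothelial ligand upstream of hepcidin, fell by 2.51 ± 0.38 (SD, n = 8, adjusted p = 1.28e-06, limma) and was lower in all 8 tumors. Gdf2, which encodes the circulating ligand BMP9, fell by 1.80 ± 0.88 in all 8. Inhbb, which encodes the subunit of activin B, rose by 2.46 ± 1.03 in all 8, and the extracellular BMP regulator Bmper by 2.14 ± 1.75 in 7. Bmper was not called in the first row of the slide alone (1.34, adjusted p = 0.130). Of the 12 markers of endothelial cells given with Bmp6, 6 fell like Bmp2. Cdh5 (0.49 ± 0.72), Lyve1 (0.43 ± 1.23) and Pecam1 (0.24 ± 0.61) had mean ratios above 0, none with an adjusted p under 0.05. The part of endothelial cells in the fall of Bmp2 was not tested. The other 5 called genes are named after their values were seen. The SMAD targets Atoh8 (-1.43 ± 0.81) and Id3 (-1.10 ± 0.58), the signal transducer Smad9 (-1.40 ± 0.70) and the receptor Acvr2b (-1.28 ± 0.43) fell, and the BMP receptor Bmpr1a rose by 1.21 ± 0.29. Smad9 was well above background in 2 of the 8 tumors.

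Id1 (chr2:152736251-152737410), a SMAD target like Hamp, was not called. Log2 signals stood at 8.51, 9.44 and 10.32 in the lowest, median and highest tumor, against 8.34, 9.75 and 10.87 in the controls. The log2 ratio was -0.14 ± 1.06 (SD, n = 8), with a 95% interval of -0.87 to 0.58 and an adjusted p of 0.729. The ratio was above 0 on arrays 2, 4 and 6, the same 3 arrays as for Hamp2, at 0.34, 1.45 and 1.00. The controls of arrays 4 and 6 were the lowest of the 8 (8.34 and 8.35), and the lowest tumors were 3 and 7 (8.52 and 8.51). Of the other SMAD targets that dampen the pathway, Smad6 stood at -0.61 ± 0.63 (adjusted p = 0.0259) and Smad7 at -0.25 ± 0.38 (adjusted p = 0.134), neither with a 2-fold change.

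**Figure D2:**
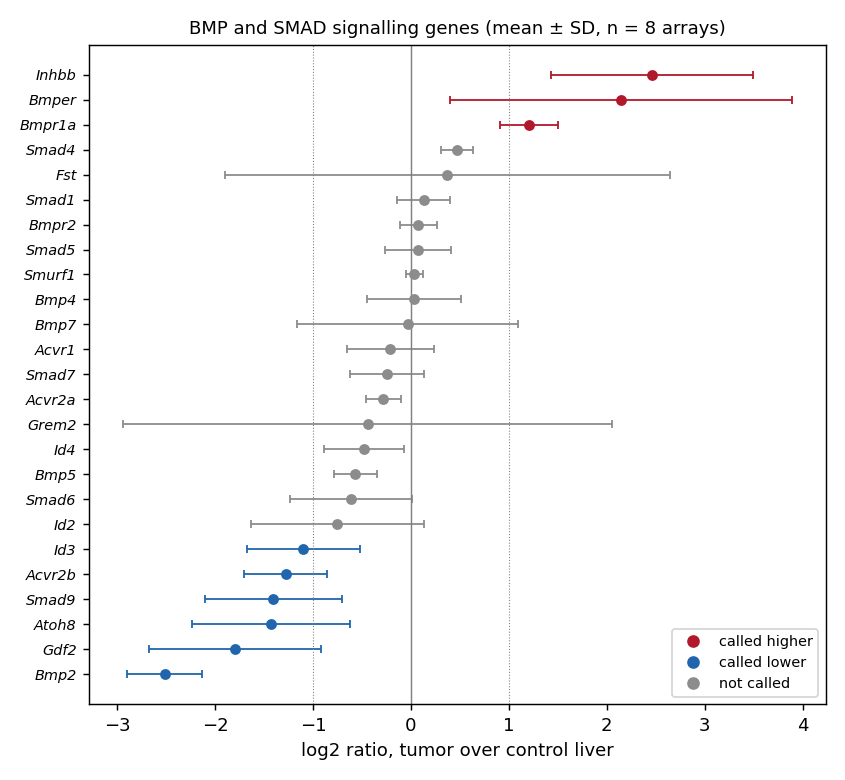
Mean log2 ratio of tumor over control (x axis) with its SD over 8 arrays for the 25 tested BMP and SMAD genes, ordered by ratio, with called genes in colour and dotted lines at 2-fold. Bmp2 (-2.51) and Gdf2 (-1.80) stand lowest, and Inhbb (2.46) and Bmper (2.14) highest.

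Of the sensors on the hepatocyte surface, none was called. Hjv (chr3:96525163-96529216), the BMP co-receptor whose loss causes juvenile hemochromatosis in people, had log2 signals of 10.56, 11.26 and 11.66 in the lowest, median and highest tumor, against 10.16, 10.52 and 10.86 in the controls. Its log2 ratio was 0.56 ± 0.59 (SD, n = 8, 6 arrays above 0), a 1.48-fold difference under the size required for a call, with an adjusted p of 0.0292 (limma). Arrays 1 to 3 had ratios near 0 (-0.28, -0.05 and 0.01), and arrays 4 to 7 ratios of 0.92 to 1.21. The mean was 0.20 in the first row of the slide (adjusted p = 0.542) and 0.92 in the second (adjusted p = 0.0169). The control of array 8, with its muscle transcripts, had a Hjv signal of 10.78, within the range of the other controls, and the ratio without that array was 0.57. The adjusted p was 0.0687 to 0.0743 without any 1 of arrays 4 to 7, at ratios of 0.47 to 0.51.

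Hfe (chr13:23702034-23710854), the HLA-like protein mutated in hereditary hemochromatosis, was lower on all 8 arrays, under 2-fold. The lowest, median and highest tumor had log2 signals of 10.44, 10.67 and 11.54, against 11.46, 11.59 and 11.81 in the controls. The mean log2 ratio was -0.73 ± 0.42 (SD, n = 8, adjusted p = 0.00189, limma), a 1.66-fold difference. In the second row of the slide alone it was -0.61 (adjusted p = 0.0959). The ratios fell into 2 ranges, with arrays 2, 7 and 8 between -0.30 and -0.19 and the other 5 between -1.09 and -0.95. The controls were nearly constant (SD 0.12), and tumors 2, 7 and 8 were the 3 brightest (11.28 to 11.54), with tumor 7 inside the range of the controls.

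Hjv and Hfe, both published as miR-122 targets, had mean ratios of opposite sign. The ratio of Hjv exceeded that of Hfe on 8 of 8 arrays, by 0.25 to 2.09, with a mean difference of 1.29 ± 0.69 (SD, n = 8). The exact permutation test gave p = 0.00781, the smallest that 8 arrays allow, and an adjusted p of 0.0156 over the 2 pairs.

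Tfr2 (chr5:137569822-137588081), the transferrin receptor that hepatocytes use as a gauge of plasma iron, was also lower on all 8 arrays, under 2-fold. The lowest, median and highest tumor had log2 signals of 14.27, 15.02 and 15.41, against 15.53, 15.83 and 15.90 in the controls. As with Hamp, the channels did not overlap. It averaged a log2 ratio of -0.78 ± 0.33 (SD, n = 8, adjusted p = 0.000488, limma), a 1.72-fold difference with the narrowest spread of the 10 genes. It was -0.52 in the first row of the slide and -1.04 in the second, where it reached the size of a call. The lowest ratio was that of array 8 (-1.28), the dimmest in Cy5, and the ratio without that array was -0.71.

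**Figure D3:**
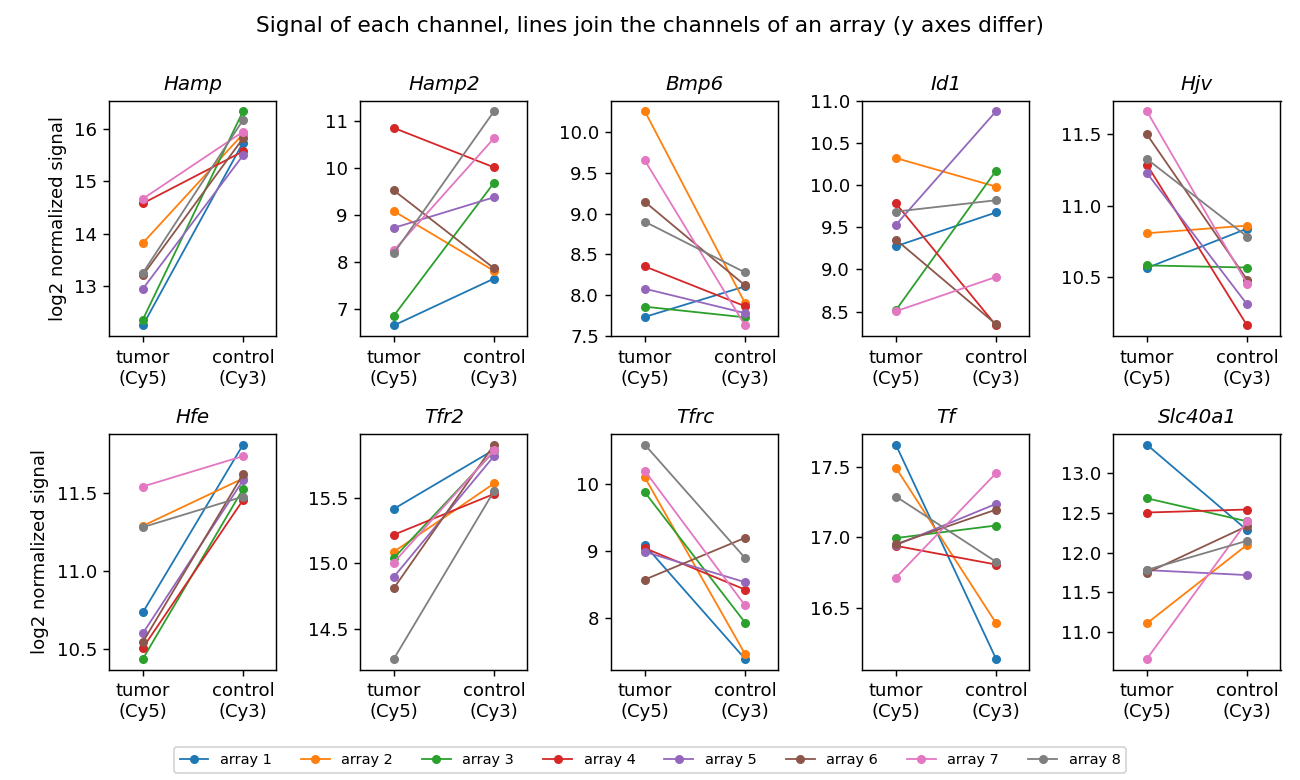
Log2 normalized signal (y axis, scaled for each gene) of the tumor channel and the control channel (x axis) for the 10 iron genes, with a line joining the channels of each array. Every line of Hamp, Hfe and Tfr2 is lower on the tumor side, and the channels of Hamp and Tfr2 do not overlap.

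Genes that act on hemojuvelin or suppress hepcidin gave 1 rise and 1 fall among 8 tested of 9 listed, with a median log2 ratio of -0.15. The shares over all genes tested were 9.54% called higher and 5.94% lower. Fgl1, a liver-secreted protein described as a suppressor of hepcidin, fell by 1.95 ± 1.59 (SD, n = 8, adjusted p = 0.00727, limma), and Gdf15, a stress cytokine linked to low hepcidin in ineffective erythropoiesis, rose by 1.81 ± 0.52 in all 8 tumors. In the second row of the slide alone, Fgl1 was not called (-1.35, adjusted p = 0.257). The ratio of Fgl1 was below 0 on 7 arrays and 1.58 on the other 1. With 1 array left out, its mean ran from -2.45 to -1.70. The summed control signal of the 8 tested genes was 129778 on array 8, against 200693 to 255240 on the other arrays. Tmprss6, the protease that cleaves hemojuvelin, had a ratio of -0.47 ± 0.57 (adjusted p = 0.0515). Erfe, the erythroid hormone that lowers hepcidin, was not well above background on enough arrays to be tested.

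Of the inflammatory inputs, 15 of 17 were tested, with 1 called higher and 1 lower, against 9.54% and 5.94% of all genes tested. The median log2 ratio of the 15 was -0.29. With no size required, 4 of them had an adjusted p under 0.05 and a ratio above 0, and 3 had one below 0. Without array 8, 3 were called lower, without array 6, 2 were, and in the first row of the slide alone, 4 were. Crp fell by 2.17 ± 0.96 (SD, n = 8, adjusted p = 0.000259, limma) in all 8 tumors. The acute phase genes Saa1 (-0.51 ± 1.11, adjusted p = 0.231), Saa2 (-0.54 ± 1.46, adjusted p = 0.33) and Saa3 (-0.05 ± 1.13, adjusted p = 0.911) were not called. Lbp stood at 0.66 ± 0.51 (adjusted p = 0.0079), under 2-fold. The cytokine gene Il1b rose by 1.01 ± 0.65, at the edge of the 2-fold size, and was under it without any 1 of arrays 1 to 5 (ratios of 0.88 to 0.99) and with arrays 1 and 2 averaged (0.94). Il1b stood at 1.45 in the first row of the slide and at 0.57 in the second (adjusted p = 0.162). Stat3 stood at -0.34 ± 0.61 and its target Socs3 at 0.19 ± 0.72, neither with an adjusted p under 0.05. The IL-6 receptor subunit Il6st was lower on all 8 arrays, at -0.89 ± 0.24 (adjusted p = 6.45e-05), under 2-fold, and Il6 itself was too dim to be tested. Among 13 transcription factors named for the Hamp promoter, 2 were called higher and 0 lower, against 9.54% and 5.94% of all genes tested. The median log2 ratio of the 13 was -0.12. Myc rose by 2.28 ± 0.41 (adjusted p = 3.01e-06) and Atf4 by 1.19 ± 0.39. Atf4 was under 2-fold with the mean of its tested probes (0.86) and in the second row of the slide alone (0.99). Cebpa, the hepatocyte factor needed for basal Hamp expression, stood at -0.74 ± 0.70 (adjusted p = 0.0177), under 2-fold.

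Tfrc (chr16:32608896-32632794), the receptor by which most cells take up transferrin iron, rose, and was above its control on 7 of 8 arrays. Log2 signals of 8.58, 9.49 and 10.59 were found in the lowest, median and highest tumor, against 7.39, 8.31 and 9.20 in the controls, so the channels overlapped. Tumor 6 was the 1 below its control (-0.62), and the ratios of arrays 1, 2, 3, 7 and 8 lay between 1.69 and 2.64. Its mean log2 ratio was 1.30 ± 1.06 (SD, n = 8), or 2.47-fold, with an adjusted p of 0.00751 (limma). It was 1.72 in the first row of the slide and 0.88 in the second (adjusted p = 0.217). Its second bright probe gave 1.05 ± 1.13, and the third, well above background in 5 tumors and 1 control, 0.27 ± 0.32. The mean of the 3 probes was 0.87, which is under 2-fold (adjusted p = 0.0161). Of 10 markers of proliferating cells, which need iron, 9 rose and 0 fell, against 9.54% and 5.94% of all genes tested. The summed signal of the 10 was 10771 to 28946 in the tumors, against 3633 to 5676 in the controls. Top2a was well above background in 2 controls and Cdk1 in 1. Erythroid precursors also carry Tfrc. Of 12 erythroid markers, 5 were tested, of which 0 rose and 1 fell, against 9.54% and 5.94% of all genes tested. The 1 that fell was Alas2, the erythroid heme enzyme, by 2.14 ± 0.59. The summed signal of the 5 was 40045 to 137493 in the tumors, against 54751 to 69021 in the controls. Tumors 2, 3 and 8 held 137493, 97998 and 128317 and were above every control. The brightest of the 5 was the globin gene Hba-a1 (mean log2 signal 15.94 in tumors, 15.54 in controls), so the sum mainly follows it. Hba-a1 stood at 0.40 ± 0.79 (adjusted p = 0.193), and Klf1 at -0.69 ± 0.60 (adjusted p = 0.0125), under 2-fold. Epb42, Gata1 and Rhag were among the erythroid markers too dim to be tested. The part of these cells in the rise of Tfrc was not tested.

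Tf (chr9:103208876-103230286), the plasma carrier of iron that hepatocytes secrete, was not called. Log2 signals were 16.71, 16.97 and 17.65 in the lowest, median and highest tumor, against 16.14, 16.95 and 17.45 in the controls. The log2 ratio was 0.23 ± 0.76 (SD, n = 8), above 0 on 4 arrays, with a 95% interval of -0.30 to 0.76 and an adjusted p of 0.431. Its 2 largest ratios were on arrays 1 and 2, which held the 2 dimmest controls and the 2 brightest tumors, and its 2 probes gave means of 0.23 and 0.12. With arrays 1 and 2 averaged the ratio was 0.077, and it changed sign between the rows of the slide (0.67 and -0.20).

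Slc40a1 (chr1:45908070-45926532), the target of hepcidin and the exporter of iron from macrophages and hepatocytes, was not called either. It had log2 signals of 10.67, 11.78 and 13.36 in the lowest, median and highest tumor, against 11.72, 12.31 and 12.54 in the controls. The tumors spread over a wider range (SD 0.87) than the controls (SD 0.25), with tumors 1 and 3 above every control and tumors 2 and 7 below every control. The log2 ratio was -0.28 ± 0.85 (SD, n = 8), with a 95% interval of -0.87 to 0.30 and an adjusted p of 0.381. Hepcidin acts on ferroportin protein, which these arrays do not measure. Of 11 tested markers of Kupffer cells and macrophages (12 listed), 5 had a call of lower and 0 of higher, against 5.94% and 9.54% of all genes tested. The 5 were Clec4f (-3.33 ± 1.11), Marco (-2.83 ± 2.22), Cd5l (-2.66 ± 1.52), Vsig4 (-2.33 ± 1.16) and Timd4. With no size required, 5 had an adjusted p under 0.05 and a ratio below 0. Another 3 had one above 0, C1qa (0.51 ± 0.38), C1qb (0.51 ± 0.36) and C1qc (0.37 ± 0.24). Over all genes tested, these shares were 25.1% lower and 28.7% higher. The summed signal of the 11 was 21363 to 59494 in the tumors, against 36602 to 87315 in the controls. Timd4 was not well above background in any tumor. Tumors 1 and 3, the highest in Slc40a1, held 59494 and 33399, and tumors 2 and 7, the lowest, 45023 and 34332. The part of macrophages in the spread of Slc40a1 was not tested.

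The wider iron handling genes moved both ways. Calls were made for 4 of 17 iron uptake genes, against 15.5% of all genes tested. They were 2 higher and 2 lower, and the median log2 ratio of the 17 was 0.10. Without array 8, 4 were called higher, and also in the first row of the slide alone, while 1 was in the second. Lcn2, which carries iron bound to siderophores, rose by 2.10 ± 0.29 (SD, n = 8, adjusted p = 1.16e-06, limma) in all 8 tumors, and the metalloreductase Steap2 by 1.96 ± 1.30 in 7. Steap2 was not called in the second row of the slide alone (1.65, adjusted p = 0.118), and the mean of its tested probes was 1.28. The zinc and iron transporter Slc39a8 fell by 1.48 ± 0.64 and Slc46a1, a transporter of folate and heme, by 1.47 ± 0.40, each in all 8. Slc11a2, the endosomal iron transporter that works downstream of Tfrc, stood at 0.85 ± 0.49 (adjusted p = 0.00163), under 2-fold. Of 12 tested genes of iron storage, export and its RNA-binding regulators (13 listed), 1 was called higher and 0 lower. These counts stand against 9.54% and 5.94% of all genes tested. The median log2 ratio of the 12 was 0.34. The heme exporter Flvcr1 rose by 1.15 ± 0.74 in all 8 tumors, and its ratio was 0.93, under the size of a call, without array 7 and 0.92 in the first row of the slide. The ferritin chains Fth1 (0.49 ± 0.50, adjusted p = 0.0278) and Ftl1 (0.53 ± 0.70, adjusted p = 0.0629) stayed under 2-fold. The iron regulatory protein Aco1 (-0.72 ± 0.22) and the iron chaperone Pcbp1 (-0.85 ± 0.17) were lower on all 8 arrays, also under 2-fold.

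Every call among the 16 genes of heme synthesis and breakdown was in the lower direction, with 4 lower and 0 higher. The shares over all genes tested were 5.94% called lower and 9.54% higher. The median log2 ratio of the 16 was -0.35, and 8 had an adjusted p under 0.05 with a ratio below 0, against 1 above. Cpox fell by 1.63 ± 0.94 (SD, n = 8, adjusted p = 0.00126, limma), Alad by 1.38 ± 0.35, and Fech, which inserts iron into the ring, by 1.23 ± 0.25, each in all 8 tumors. Urod (-0.74 ± 0.25), an intermediate step of the pathway, was lower on all 8 arrays with a change under 2-fold. The first enzyme, Alas1 (-0.27 ± 1.15, adjusted p = 0.545), and the heme-degrading enzyme Hmox1 (0.08 ± 0.90, adjusted p = 0.813) were each above 0 on 4 arrays and below 0 on the other 4. Of the 12 hepatocyte markers given with Hamp, 4 fell as well, and their part in the fall of the heme genes was not tested.

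Hamp was called lower under all 23 processing alternatives, at ratios of -2.70 to -2.27. Tfrc was called higher in 20 of the 23. Tfr2 had an adjusted p under 0.05 in all 23 and Hfe in 22, while Hjv had one in 16 and Bmp6 in 14. The 5 genes whose ratios over the 8 arrays were most like those of Hamp, among 11211 genes well above background in both channels of all arrays, were Khdrbs3, Hacl1, Adtrp, Acsl1 and Gcdh. Their root mean square differences from Hamp were 0.599 to 0.683 on the log2 scale. Khdrbs3, an RNA-binding protein, was closest, with a log2 ratio of -2.30 ± 0.53 (SD, n = 8).

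**Figure D4:**
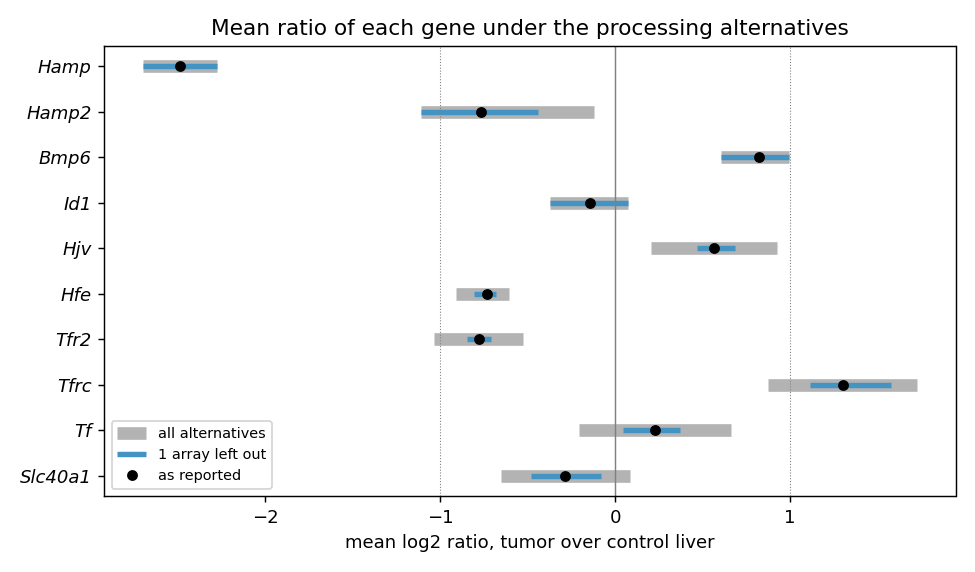
Mean log2 ratio of tumor over control (x axis) for each iron gene as reported (black point), with the range when 1 array is left out (blue) and the range over all 23 alternatives (grey). The range of Hamp stays between -2.70 and -2.27, while those of Id1, Tf and Slc40a1 cross 0.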

How the data were processed

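The 8 arrays were Agilent 2-colour arrays on 1 slide with 1 scan, with the tumor channel in Cy5 and the control channel in Cy3. The deposited intensity values are medians of signal and of background per spot, made by the authors with Agilent Feature Extraction (10.9 per the submitters' processing notes, 10.9.1.1 per the file headers). The deposited processed signals, an intensity that was background-subtracted, detrended and dye-normalized per the file headers, served as an alternative. The deposited log10 ratio of red over green was not analysed, since it was 0 at 24.2% to 30.4% of spots.

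Signals were corrected with normexp (offset 50) and normalized by loess within arrays, with control and outlier spots left out (limma 3.58.1 in R 4.3.3). Channel values were taken after Aquantile normalization. Of 55681 probes, 26582 were named by accession in RefSeq (GRCm38.p6). The test took the 29290 probes that passed the background call of Agilent Feature Extraction in 4 or more arrays of a channel. The brightest probe stood for each of 14311 genes. Ratios were tested against 0 with lmFit and eBayes, adjusted by Benjamini-Hochberg over all genes. Genes named are the 10 members, up to 4 called genes of each pathway list and 3 of each marker list with the largest ratios, and the 5 most like Hamp. Others are given as list members of known role, and some list members are counted but not reported here by name. The members and lists were chosen with earlier results of these data known. Promoter windows were aligned and searched with Biopython 1.88 in Python 3.11.15. Alternatives were other background corrections, the processed signals, other normalizations, filters, probe rules and variance models, weighted arrays, slide row as a term and each row alone, each array left out, arrays 7 and 8 left out, and arrays 1 and 2 averaged. The fit was tested on simulated data. Arrays have no read depth, and their number limits the precision. The p-values measure the spread between these arrays.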

Additional observations from a re-analysis of the deposited data

How the results depend on the processing

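Each gene was recomputed under 23 alternatives and each pair under 21, since other variance models and array weights do not apply to a permutation test. With the processed signals, 2 iron genes were called lower (Hamp and Tfr2), 1533 genes in all were called lower (850 as reported), and Hamp minus Hamp2 was -1.40 (adjusted p = 0.102). With the mean of all tested probes and with array weights, 0 iron genes were called higher, Tfrc standing at 0.87 and 0.97. In the first row of the slide alone, 1 iron gene had an adjusted p under 0.05 and a higher ratio, Hamp minus Hamp2 was -2.20, Hjv minus Hfe 1.06 and Slc40a1 0.084. In the second row alone, 0 iron genes were called higher, 2 called lower and 1 was higher by adjusted p, 848 genes in all were called higher (1365 as reported), Hamp minus Hamp2 was -1.24, Hjv minus Hfe 1.53 and Tf -0.20. A row has 4 arrays, with which the permutation test cannot go below 0.125. With 1 array left out, the count of iron genes higher by adjusted p ranged from 1 to 3, Hamp minus Hamp2 from -2.12 to -1.35, and Id1 from -0.37 to 0.071, turning above 0 without array 3 (0.071) or 5 (0.03). Without arrays 7 and 8, 1 iron gene was higher by adjusted p. With arrays 1 and 2 averaged, Hamp minus Hamp2 was -1.55 (adjusted p = 0.0781). The counts of the pathway lists also moved, from 1 to 4 called higher and 2 to 3 lower in iron uptake, 0 to 1 higher and 1 to 4 lower in inflammatory input, 0 to 2 higher and 0 to 1 lower in iron storage and export, 1 to 3 higher among transcription factors, and 0 to 1 lower among suppressors of hepcidin. Of these, 4 called higher in iron uptake and 3 called lower in inflammatory input were reached without array 8. The count called lower in the heme list was 4 under all 23. The causes of these changes were not tested. No further pairing was possible because the arrays form 1 group, in which each ratio already pairs the tumor and control channels of an array.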
